A study of Mus musculus with 9 samples.

Results

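Messenger RNA levels of 10 genes of cytokine signalling were examined in FDCPmix cells after knockdown (KD) of Gata2 or Pu.1. The genes were the kinase Jak2, the transcription factors Stat3, Stat5a and Stat5b, the feedback inhibitors Cish, Socs1, Socs2 and Socs3, and the kinases Pim1 and Pim2. They were chosen as a named list with earlier results of these data known, and their probes were found through transcript accessions. The list makes up 10 of the 16535 named genes and 13 of the 41174 probes on the array. Counts of called genes are set beside the share over all genes as a description, and the list itself was not tested. FDCPmix is a mouse line of multipotent blood progenitors that self-renews in IL-3. Every group carried a GFP-marked Lentilox 3.7 lentivirus, either empty (EV), with an shRNA against Gata2 (shGata2 LLX, here Gata2 KD) or with an shRNA against Pu.1 (shPu1 LLX, here Pu.1 KD). Viable GFP+ cells were sorted on day 5, and 150 ng of total RNA per sample was labelled with Cy3 and hybridised, with 3 arrays per group and 9 in all. The EV control held no hairpin. The study speaks of a gene-specific shRNA against Gata2 and does not otherwise give the number of hairpins per target. The study's methods state that triplicate samples of cells were transduced, without naming separate cultures. Whether they came from a common starting culture is not stated, so the p-values measure the spread between these samples only.

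Receptors for IL-3 and related cytokines have no kinase of their own and signal through bound Janus kinases such as JAK2. The kinase phosphorylates STAT proteins, which form dimers, enter the nucleus and switch on genes including the PIM survival kinases. CIS (encoded by Cish) and the SOCS proteins are made in the same response and damp the signal by acting on the receptor or the kinase, which closes a feedback loop. In myeloid progenitors STAT5 is the main factor downstream of IL-3, whereas STAT3 is the main factor downstream of the granulocyte colony-stimulating factor receptor.

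Levels below are log2 Cy3 intensities with the array's own 75th percentile subtracted, so that a level of 1 is 2-fold above that percentile, and the levels of different genes are not compared. A gene with more than 1 probe is given by its brighter probe. A change was called when limma's adjusted p (Benjamini-Hochberg over 36585 tested probes) was under 0.05. Each of the 13 probes was well above background on 9 of 9 arrays and was tested. The 75th percentile lay between an intensity of 453 and 599 on the 9 arrays, and 80.4% to 89.6% of the spots were well above background. The 9 arrays lay on 3 slides with 1 array of each group per slide, so each difference could also be taken within a slide. Gata2 itself was lower in Gata2 KD than in EV by 1.63 ± 0.23 (log2 change ± SE, adjusted p = 0.00398), with a log2 change of -1.82 at its dimmer probe. Spi1, the gene that encodes PU.1, had a log2 change of -1.74 ± 0.15 in Pu.1 KD (adjusted p = 0.0018) and of 1.37 ± 0.15 in Gata2 KD (adjusted p = 0.00129). The Spi1 change in Pu.1 KD was smaller, -1.0, with normexp background correction (adjusted p = 0.000795). Over all probes, 1036 were called higher and 854 lower in Gata2 KD against EV, against 827 and 364 when arrays were scaled to their median.

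In Gata2 KD, 3 of the 10 genes were called against EV, where 7.12% of all 15808 named genes tested were called. Socs3 rose (4.05% of genes were called higher), and Stat5a and Socs1 fell (3.07% were called lower). In Pu.1 KD, Jak2 alone of the 10 was called, and it was lower (3.53% of genes were called in that comparison, 2.12% as lower). These calls depend on the fit. With the slide as a block, Socs2, Socs3 and Stat3 also passed in Pu.1 KD (adjusted p = 0.0266, 0.0340 and 0.0276). Pim1 and Socs2 then also passed in Gata2 KD (adjusted p = 0.0423 and 0.0427). Compared directly, 6 of the 10 genes were called between Gata2 KD and Pu.1 KD, where 12.4% of all genes were called. Jak2, Pim1 and Stat3 were higher in Gata2 KD (6.55% of genes were called higher), and Stat5a, Socs1 and Socs2 were lower (5.82%). Counted by probe, 3, 2 and 7 of the 13 were called in these comparisons, beside 5.17%, 2.63% and 9.61% of all probes. With arrays scaled to their median, or with only the groups compared in the fit, the calls of Socs1, Socs3 and Jak2 against EV were lost (adjusted p = 0.0553 to 0.145) and that of Stat5a held. The median change of the 10 genes was -0.08 in Gata2 KD and 0.09 in Pu.1 KD against EV, beside -0.11 and -0.05 over all genes. In the direct comparison it was -0.27, beside -0.05 over all genes. The comparisons against EV share the 3 EV arrays, so their values are set side by side below without a count of shared calls.

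**Figure D1:**
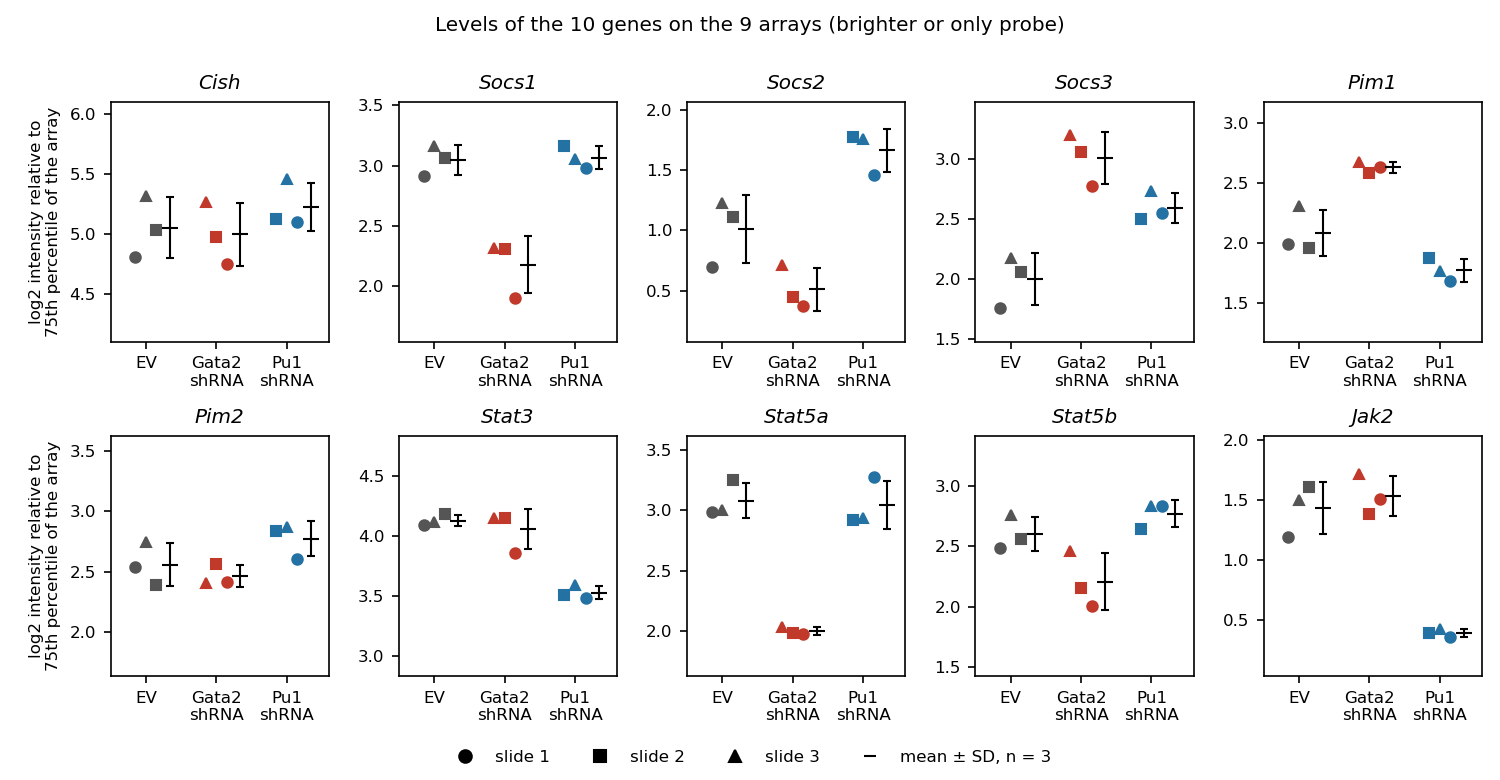
Level of each of the 10 genes on the 9 arrays (y axis, log2 intensity with the array's 75th percentile as 0, every panel spanning the same range), by group (x axis; Gata2 shRNA is Gata2 KD and Pu1 shRNA is Pu.1 KD). Each point is 1 array with its slide as the symbol, and the cross and bar give the mean ± SD of 3 arrays. Stat5a and Socs1 stand apart as low in Gata2 shRNA, Jak2 and Stat3 as low in Pu1 shRNA, and Socs3 is highest in Gata2 shRNA, with Pu1 shRNA next.

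Jak2 encodes the kinase bound to the receptors for IL-3, GM-CSF and erythropoietin. Its level was 1.19, 1.5 and 1.61 in EV, 1.38, 1.5 and 1.71 in Gata2 KD, and 0.35, 0.39 and 0.42 in Pu.1 KD. The 3 Pu.1 KD arrays lay within 0.07 of each other and below every array of the other groups, while EV and Gata2 KD overlapped. Jak2 was 2.06-fold lower in Pu.1 KD than in EV (log2 change -1.04, SE 0.16, adjusted p = 0.0128) and 2.21-fold higher in Gata2 KD than in Pu.1 KD (log2 change 1.14, SE 0.16, adjusted p = 0.0020). Gata2 KD differed from EV by 0.10, with a 95% interval of -0.26 to 0.46 (adjusted p = 0.920). A second Jak2 probe was far dimmer, with mean levels of -4.32 in EV, -4.31 in Gata2 KD and -5.59 in Pu.1 KD. It too was lowest in Pu.1 KD. Its log2 change was -1.27 in Pu.1 KD (adjusted p = 0.0109), 1.28 between the KD groups (adjusted p = 0.00257) and 0.01 in Gata2 KD (adjusted p = 0.997). Within the slides, the brighter probe was lower in Pu.1 KD by log2 differences of -0.84, -1.22 and -1.08. The adjusted p for Pu.1 KD against EV rose to 0.0550 without EV replicate 2 and to between 0.0551 and 0.0667 without any 1 of the Pu.1 KD replicates, while the change stayed between -0.96 and -1.17 whichever array was left out. The direct difference between the KD groups kept its call in all 21 alternatives.

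The 250 bases before the annotated Jak2 start (RefSeq, GRCm38.p6, chr19:29251553-29251802, + strand) are shown because Jak2 is the gene called in Pu.1 KD in the main fit. The capitals mark GGAAG, the core that ETS factors such as PU.1 bind, on either strand.
Jak2: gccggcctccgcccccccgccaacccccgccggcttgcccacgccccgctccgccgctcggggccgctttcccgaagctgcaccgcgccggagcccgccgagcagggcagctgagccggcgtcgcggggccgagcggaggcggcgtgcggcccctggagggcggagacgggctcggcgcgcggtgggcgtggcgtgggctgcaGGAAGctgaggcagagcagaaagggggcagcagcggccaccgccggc
This core lies at bases -47 to -43 from the start. It is common: 71.4% of all 32851 promoter windows of 300 bases (250 before and 50 after a start) held it on either strand, and so did 10 of the 12 windows of 9 of the 10 genes, those of Jak2 and Stat5a among them. The longer PU.1 motif GGAAGTG was in 11% of all windows and the GATA motif AGATAAG in 3.04%, and neither was in any of the 12.

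Stat5a and Stat5b encode the closely related STAT5 proteins. The Stat5a level was 2.99, 3.01 and 3.25 in EV, 1.97, 1.98 and 2.03 in Gata2 KD, and 2.92, 2.94 and 3.27 in Pu.1 KD. The Gata2 KD arrays lay within a narrow band below every other array, and the EV and Pu.1 KD arrays overlapped. Stat5a was 2.12-fold lower in Gata2 KD than in EV (log2 change -1.09, SE 0.15, adjusted p = 0.00375) and 2.07-fold lower than in Pu.1 KD (log2 change -1.05, SE 0.15, adjusted p = 0.00253). In Pu.1 KD the change against EV was -0.04, with a 95% interval of -0.38 to 0.30 (adjusted p = 1.00). Within the slides, the Gata2 KD minus EV differences were -1.02, -1.27 and -0.98. Both calls held in all 21 alternatives, with adjusted p of at most 0.0253 against EV and 0.0165 against Pu.1 KD.

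Stat5b was also lowest in Gata2 KD, by a smaller difference. Its brighter probe read 2.49, 2.56 and 2.76 in EV, 2.0, 2.15 and 2.47 in Gata2 KD, and 2.64, 2.84 and 2.84 in Pu.1 KD. The Gata2 KD arrays lay below both other groups without overlap, and EV and Pu.1 KD overlapped. The log2 change in Gata2 KD was -0.40 against EV (SE 0.16, adjusted p = 0.291) and -0.57 against Pu.1 KD (SE 0.16, adjusted p = 0.0714), and neither was called. With the slide as a block, the adjusted p was 0.102 and 0.0238, so the second passed, as it did without Gata2 KD replicate 1 (adjusted p = 0.0436). The dimmer Stat5b probe gave log2 changes of -0.19 and -0.21 for the same comparisons (adjusted p = 0.630 and 0.528). The level of the brighter Stat5b probe was subtracted from the Stat5a level on each array, and the groups were compared. In Gata2 KD against EV, the Stat5a change minus the Stat5b change was -0.69 (SE 0.18). The groups did not overlap, and the exact permutation p was 0.1, the smallest that 3 against 3 arrays allow.

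Stat3 was the member with the steadiest EV arrays. It read 4.09, 4.12 and 4.18 in EV, 3.86, 4.15 and 4.16 in Gata2 KD, and 3.49, 3.51 and 3.59 in Pu.1 KD, each as the mean of 10 spots. Pu.1 KD lay below all other arrays, and EV and Gata2 KD overlapped. The log2 change was -0.60 in Pu.1 KD against EV (SE 0.13, adjusted p = 0.0588), which missed the threshold, and 0.53 in Gata2 KD against Pu.1 KD (SE 0.13, adjusted p = 0.0420), which passed it. With the slide as a block both passed (adjusted p = 0.0276 and 0.0184), and the within-slide differences of Pu.1 KD from EV were -0.60, -0.67 and -0.52. The direct call was lost in 11 of 21 alternatives, among them the omission of EV replicate 1 or 2, Gata2 KD replicate 1 or 2, or any Pu.1 KD replicate (adjusted p = 0.0640 to 0.177), while the change stayed between 0.48 and 0.62. In Gata2 KD against EV the Stat3 change was -0.07, with a 95% interval of -0.38 to 0.23 (adjusted p = 0.936).

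**Figure D2:**
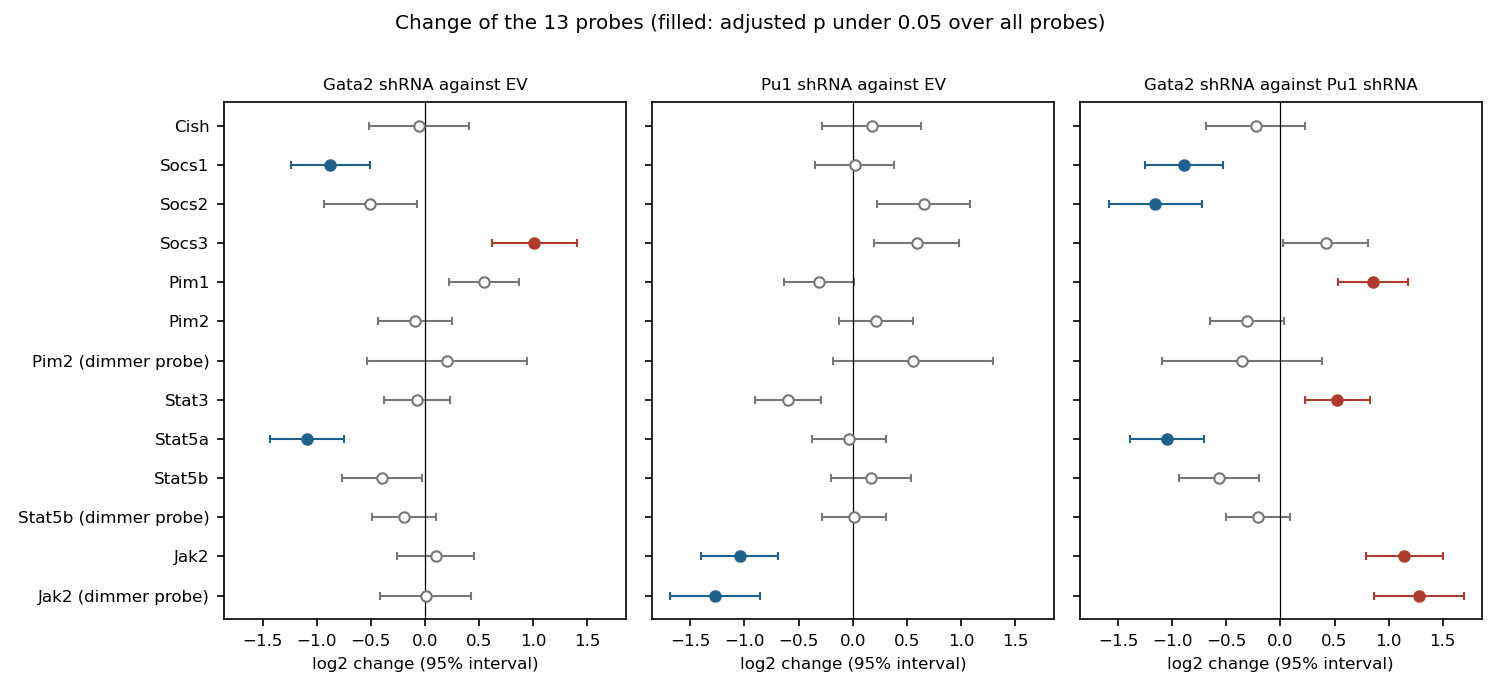
Log2 change of the 13 probes (x axis, with 95% intervals from limma) in Gata2 shRNA against EV, Pu1 shRNA against EV and Gata2 shRNA against Pu1 shRNA, for each gene and its dimmer probe where it has one. Filled points have an adjusted p under 0.05 over all 36585 probes tested: 3 in the first panel, 2 in the second and 7 in the third.

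Cish and Socs3 are textbook STAT-induced genes. The palindrome that STAT dimers bind, TTCNNNGAA, was in 2726 of the 32851 promoter windows, or 8.3%. Socs2 had no window and was not searched. Among the 12 windows of the other 9 genes, 2 held the palindrome, those of Cish and Socs3. The matches are in capitals in 30 bases around them, with the Cish stretch across its annotated start (chr9:107296654-107296683, + strand) and the Socs3 stretch before it (chr11:117969501-117969530, - strand, both RefSeq, GRCm38.p6).
Cish: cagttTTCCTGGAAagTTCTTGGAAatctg
Socs3: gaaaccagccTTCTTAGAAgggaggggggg
Cish has a pair of matches, at bases 1 to 9 and 12 to 20 after the start, and Socs3 has 1, at bases -154 to -146.

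Cish encodes CIS, which binds the activated receptor. Its level was 4.81, 5.04 and 5.32 in EV, 4.75, 4.97 and 5.27 in Gata2 KD, and 5.10, 5.12 and 5.46 in Pu.1 KD. All groups overlapped, and no difference was called. The log2 change against EV was -0.06 in Gata2 KD, with a 95% interval of -0.52 to 0.40 (adjusted p = 0.973), and 0.17 in Pu.1 KD, with an interval of -0.29 to 0.63 (adjusted p = 0.927). Slide accounted for 76.6% of the Cish variance over the 9 arrays and group for 19.8%, whereas slide accounted for 0.29% to 17.1% at the other 12 probes. Within the slides, the Gata2 KD array differed from the EV array by log2 differences of -0.06, -0.06 and -0.05, and the Pu.1 KD array by 0.29, 0.08 and 0.14. With the slide as a block the Gata2 KD interval narrowed to between -0.28 and 0.17 (adjusted p = 0.758).

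Socs3 encodes an inhibitor of JAK kinases that acts at receptors such as gp130 and the granulocyte colony-stimulating factor receptor. Its level was 1.76, 2.06 and 2.17 in EV, 2.77, 3.05 and 3.19 in Gata2 KD, and 2.50, 2.55 and 2.73 in Pu.1 KD. No groups overlapped, with EV lowest and Gata2 KD highest. Socs3 was 2.01-fold higher in Gata2 KD than in EV (log2 change 1.01, SE 0.17, adjusted p = 0.0109), and the differences within the slides were 1.02, 0.99 and 1.02. Without Gata2 KD replicate 2 the adjusted p was 0.0596. In Pu.1 KD the log2 change was 0.59 (SE 0.17, adjusted p = 0.147), and with the slide as a block it passed (adjusted p = 0.0340). The KD groups differed by 0.42 (SE 0.17, adjusted p = 0.228).

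Socs1, whose product blocks the JAK catalytic site and restrains interferon signalling, went the other way. Its level was 2.91, 3.06 and 3.16 in EV, 1.90, 2.31 and 2.32 in Gata2 KD, and 2.98, 3.06 and 3.16 in Pu.1 KD. The EV and Pu.1 KD arrays covered nearly the same range, and all Gata2 KD arrays lay below it. Socs1 was 1.83-fold lower in Gata2 KD than in EV (log2 change -0.87, SE 0.16, adjusted p = 0.0151) and 1.86-fold lower than in Pu.1 KD (log2 change -0.89, SE 0.16, adjusted p = 0.00826). Within the slides, the Gata2 KD minus EV differences were -1.01, -0.76 and -0.85. The call against EV was lost without EV replicate 2 (adjusted p = 0.0635) or Gata2 KD replicate 3 (adjusted p = 0.0543). In Pu.1 KD the change was 0.02, with a 95% interval of -0.34 to 0.38 (adjusted p = 1.00). The Socs3 change exceeded the Socs1 change by a log2 difference of 1.88 (SE 0.07) in Gata2 KD and 0.57 (SE 0.11) in Pu.1 KD against EV, with no overlap of the groups and each with an exact permutation p of 0.1.

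The 250 bases before the annotated Socs1 start (RefSeq, GRCm38.p6, chr16:10785537-10785786, - strand) are given for comparison with Socs3, with the GGAAG core in capitals. No TTCNNNGAA lies in the window.
Socs1: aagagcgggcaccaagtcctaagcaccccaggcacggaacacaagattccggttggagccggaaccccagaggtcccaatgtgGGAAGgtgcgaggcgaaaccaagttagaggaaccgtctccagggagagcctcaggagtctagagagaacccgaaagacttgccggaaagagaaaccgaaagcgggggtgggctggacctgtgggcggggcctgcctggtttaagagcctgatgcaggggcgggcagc
The core lies at bases -167 to -163 from the start.

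Socs2 encodes an inhibitor best known for restraining growth hormone signalling. The level was 0.69, 1.12 and 1.23 in EV, 0.37, 0.45 and 0.71 in Gata2 KD, and 1.46, 1.77 and 1.78 in Pu.1 KD. Pu.1 KD lay above all other arrays, whereas the lowest EV array fell within the Gata2 KD range. Between the KD groups, Socs2 was 2.23-fold lower in Gata2 KD (log2 change -1.16, SE 0.19, adjusted p = 0.00526), a call held in all 21 alternatives. Neither group was called against EV, with log2 changes of -0.50 in Gata2 KD (SE 0.19, adjusted p = 0.234) and 0.65 in Pu.1 KD (SE 0.19, adjusted p = 0.143). With the slide as a block both passed (adjusted p = 0.0427 and 0.0266), and the within-slide differences from EV ran from -0.67 to -0.32 in Gata2 KD and from 0.53 to 0.77 in Pu.1 KD.

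Pim1 and Pim2 encode serine/threonine kinases that promote survival and protein synthesis. Pim1 read 1.96, 1.99 and 2.30 in EV, 2.58, 2.63 and 2.67 in Gata2 KD, and 1.68, 1.77 and 1.87 in Pu.1 KD. The 3 groups did not overlap, with Gata2 KD highest and Pu.1 KD lowest. Pim1 was 1.81-fold higher in Gata2 KD than in Pu.1 KD (log2 change 0.86, SE 0.14, adjusted p = 0.00564). Against EV the log2 change was 0.54 in Gata2 KD (SE 0.14, adjusted p = 0.0730), which passed with the slide as a block (adjusted p = 0.0423), and -0.31 in Pu.1 KD (SE 0.14, adjusted p = 0.430), which did not (adjusted p = 0.219). Its within-slide differences from EV were 0.65, 0.62 and 0.37 in Gata2 KD and -0.31, -0.09 and -0.54 in Pu.1 KD.

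Pim2 was not called in any comparison. It read 2.39, 2.54 and 2.74 in EV, 2.40, 2.41 and 2.56 in Gata2 KD, and 2.6, 2.84 and 2.87 in Pu.1 KD. The Gata2 KD arrays lay just below the Pu.1 KD arrays, and EV overlapped both. The log2 change against EV was -0.09 in Gata2 KD, with a 95% interval of -0.43 to 0.25 (adjusted p = 0.921), and 0.22 in Pu.1 KD, with an interval of -0.12 to 0.56 (adjusted p = 0.736). The dimmer Pim2 probe varied more, from -0.45 to 0.81 in EV, and its changes were 0.20 and 0.56 (adjusted p = 0.922 and 0.624), so the sign of the Gata2 KD change differed between the probes. The level of the brighter Pim2 probe was subtracted from the Pim1 level on each array, and the groups were compared. The Pim1 change exceeded the Pim2 change by a log2 difference of 0.64 (SE 0.09) in Gata2 KD against EV. In Pu.1 KD it fell short, with a value of -0.53 (SE 0.07). Each had an exact permutation p of 0.1, and 9 such differences were computed in all. The dimmer Pim2 probe was not used there. Its within-slide differences from EV in Gata2 KD were 0.13, 1.12 and -0.65, so on slide 2 it exceeded Pim1.

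**Figure D3:**
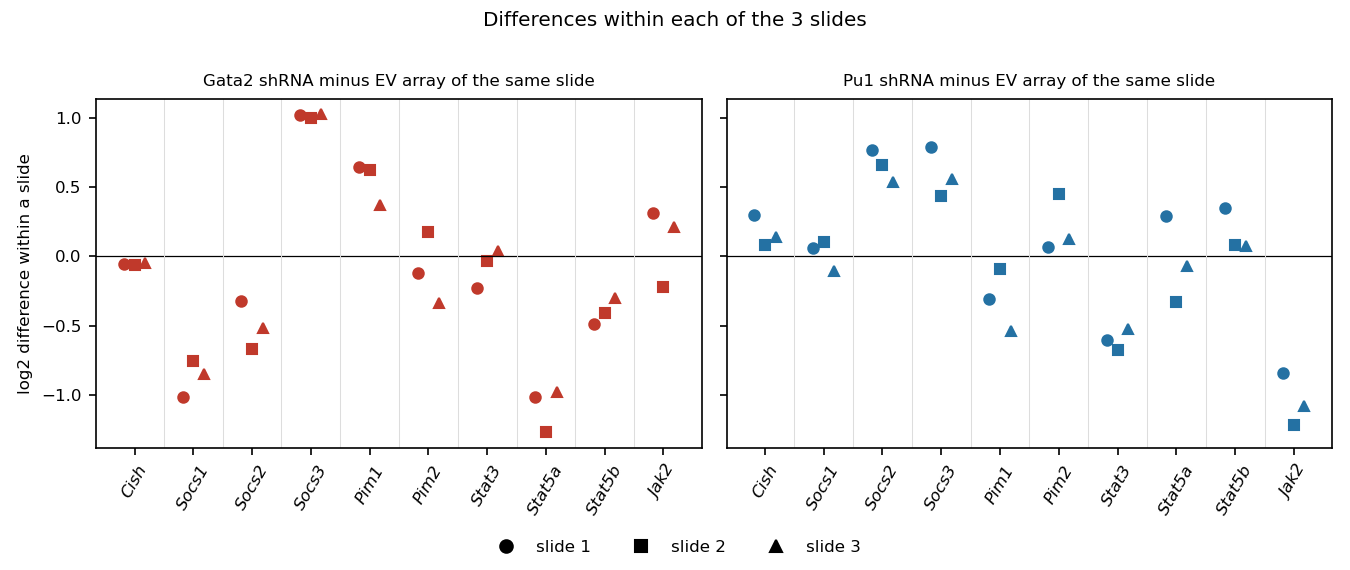
Log2 difference of the Gata2 shRNA array (left) or the Pu1 shRNA array (right) from the EV array of the same slide (y axis) for the 10 genes (x axis), with 1 point per slide. Socs3 lies between 0.99 and 1.02 in all 3 slides on the left, Stat5a between -1.27 and -0.98, and Jak2 between -1.22 and -0.84 on the right. Pim2, Stat3 and Jak2 have points on both sides of 0 on the left, and Socs1 and Stat5a on the right.

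By groups that did not overlap, 5 of the 10 genes were apart in Gata2 KD against EV, 5 in Pu.1 KD against EV and 9 between the KD groups. Over all genes tested, 23.7%, 20.6% and 30.3% did not overlap in the same comparisons. Cish was the gene that overlapped between the KD groups.

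The other genes of the pathway were read from a list of 63 receptor chains, kinases, STAT factors, inhibitors, adaptors and target genes, of which 62 were tested. This list, too, was chosen with earlier results of these data known. In Gata2 KD 13 rose and 3 fell against EV, in Pu.1 KD 3 rose and 2 fell, and between the KD groups 13 were higher and 7 lower in Gata2 KD, beside 7.12%, 3.53% and 12.4% of all genes called. The median change of the 62 was 0.11 in Gata2 KD, 0.06 in Pu.1 KD and 0.00 between them, beside -0.11, -0.05 and -0.05 over all genes. In Gata2 KD the changed genes lay mainly among the 18 receptor chains, where 7 rose and 2 fell. Csf3r, the receptor for granulocyte colony-stimulating factor, had a log2 change of 3.09 (adjusted p = 4.2e-05), and Csf2ra, the GM-CSF receptor alpha chain, one of 2.55 (adjusted p = 5.0e-05). The interferon receptor chains Ifngr2, Ifngr1 and Ifnar2 rose by log2 changes of 1.41, 1.1 and 0.86. Csf2rb2, the IL-3-specific beta chain in mouse, fell by 0.95 on the log2 scale (adjusted p = 0.0353). Among 13 other STAT5 and STAT3 target genes, 3 rose, 1 fell and 9 were not called. Bcl6, a transcriptional repressor, rose by 1.67 and Bcl3, a regulator of NF-kB, by 1.55.

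In Pu.1 KD the erythropoietin receptor Epor rose by a log2 change of 0.87 (adjusted p = 0.0175). Csf3r fell by 1.42 (adjusted p = 0.00742) and Bcl3 by 1.31 (adjusted p = 0.00298), both opposite in sign to Gata2 KD. Ccnd2, which encodes the G1 cyclin D2, rose by 0.79 (adjusted p = 0.0221). Among the called genes with the largest differences between the KD groups were Csf3r (4.51), Csf2ra (2.95), Bcl3 (2.86), Csf2rb2 (-1.61), Epor (-1.54), Ptpn6 (1.47) and Ifngr2 (1.20), where Ptpn6 encodes the phosphatase SHP-1. The other JAK kinases (Jak1, Jak3, Tyk2), the other SOCS genes with Pim3, and the 4 PIAS genes held no called gene in any comparison.

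**Figure D4:**
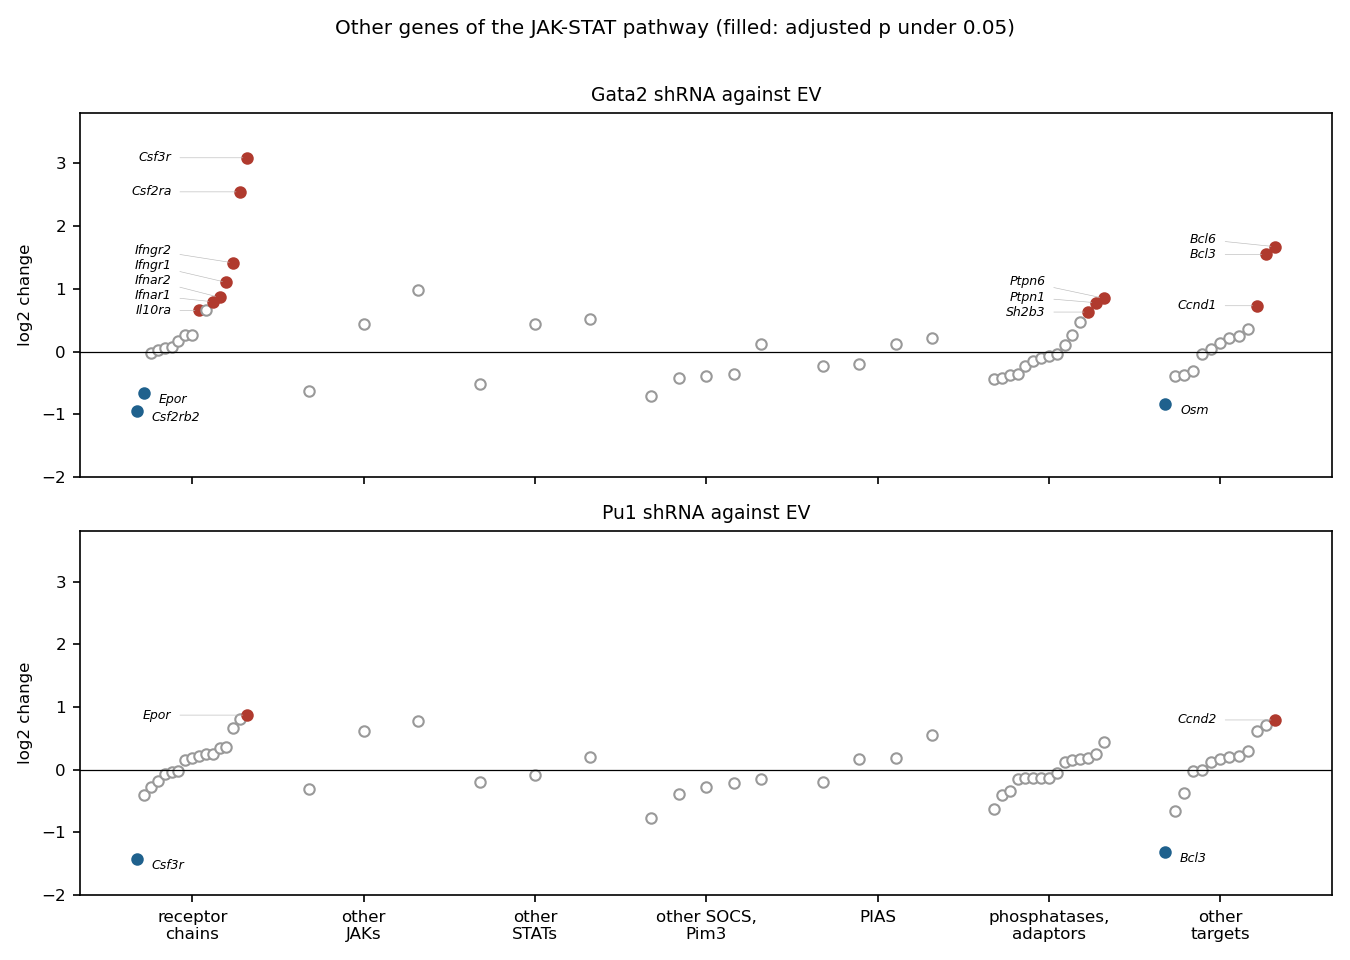
Log2 change (y axis) of 60 other pathway genes by class (x axis, genes ordered by change within a class) in Gata2 shRNA against EV (top) and Pu1 shRNA against EV (bottom). Filled and named points have an adjusted p under 0.05: 13 higher and 3 lower at the top, 2 higher and 2 lower at the bottom, most of them receptor chains and target genes.

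Markers of blood cell types moved with the same groups. In a bulk sample, fewer cells of a type and less RNA per cell cannot be told apart. By surface antigen, the study itself reports more Gr-1+ myeloid cells after Gata2 knockdown and fewer after Pu.1 knockdown. Of 9 neutrophil and monocyte markers, 9 rose in Gata2 KD and 5 fell in Pu.1 KD. Their summed level (linear, in units of the array's 75th percentile, and so weighted to the brightest probes) was 209.6 to 238 in EV, 919 to 1049 in Gata2 KD and 104 to 120.0 in Pu.1 KD, without overlap. Csf1r and Csf3r led the rise in Gata2 KD (4.50 and 3.09), and Fcgr1 and Mpo the fall in Pu.1 KD (-3.03 and -2.81). Of 7 mast cell and basophil markers, 6 fell in Gata2 KD, led by Il1rl1 (-3.23) and Fcer1a (-2.98), and their sum was 23.0 to 25.3 there beside 122 to 140.1 in EV and 86.8 to 94.9 in Pu.1 KD. In Pu.1 KD 2 of the 7 fell, led by Hdc (-1.02), and Cma1 rose (1.48). The 5 megakaryocyte markers summed to 55.0 to 72.5 in EV, 54.8 to 84.6 in Gata2 KD and 141 to 165 in Pu.1 KD, where Pf4 (1.61) rose. The 5 erythroid markers summed to 8.98 to 9.997 in EV, 6.74 to 10.7 in Gata2 KD and 14.97 to 17.3 in Pu.1 KD. The sums of EV and Gata2 KD overlapped, but Klf1 (-1.79, adjusted p = 0.000153) and Epor (-0.67, adjusted p = 0.0315) fell in Gata2 KD, and both rose in Pu.1 KD (0.84 and 0.87). The 6 multipotent progenitor markers were well above background on 9 of 9 arrays, and their sum overlapped in all groups, between 73.7 and 98.9. This sum holds called changes of both signs: 2 rose and 2 fell in Gata2 KD, with Cd34 (2.15) and Gata2 itself (-1.63) foremost, and in Pu.1 KD Kit rose (1.41) and Cd34 fell (-0.92). The 5 lymphoid markers summed to 2.43 to 3.61. The part of these markers in the changes of Jak2, the STAT, SOCS and PIM genes was not tested.

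The genes most like Stat5a and Jak2, the members with the largest called change in each comparison against EV, were found by Pearson correlation of levels over the 9 arrays, which share their groups and slides. Group accounted for 94.8% of the Stat5a variance and 94.1% of the Jak2 variance over these arrays. Genes chosen by this correlation therefore follow the same groups by the choice itself, and their changes are no separate evidence. For Stat5a they were Plxdc2, Csgalnact1, F2r, Smim5 and Nr4a2 (r = 0.985 to 0.993). All 5 were lower in Gata2 KD, by log2 changes from -0.75 in Smim5 to -1.35 in F2r, and their changes in Pu.1 KD lay between -0.09 and 0.05. For Jak2 they were Pstpip2, Nxt2, Slc25a12, Kyat3 and Rgs19 (r = 0.984 to 0.991). These fell in Pu.1 KD, by log2 changes from -0.92 in Slc25a12 to -1.51 in Pstpip2, and their changes in Gata2 KD ran from 0.09 to 0.38 without a call.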

How the data were processed

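RNA from FDCPmix cells was measured on 9 one-colour Agilent arrays, grouped by the sample titles. The authors deposited, array by array, the intensity values written by Agilent Feature Extraction 10.1.1.1 (array design build mm8), with processed signals that were background-subtracted but not scaled between arrays. A single deposited table of log2 values made by the authors, whose processing is not given in full in the sources used here, served as an alternative.

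Processed signals were put on the log2 scale and control spots were left out. Each array's 75th percentile, taken with outlier-flagged spots included, was subtracted. Flagged spots were then left out, and the remaining spots were averaged per probe. Probes well above background on at least 3 of 9 arrays were tested, for probes with several spots where at least 50% of the spots were, and with at least 2 values in each group. Accessions were matched to RefSeq (GRCm38.p6), which named 23374 probes, and symbols came from there. limma 3.58.1 in R 4.3.3 was fitted on group means over all 9 arrays (two-sided, threshold 0.05). The fit was also run on simulated data with independent noise and no slide effect, which cannot show how it behaves on arrays that share slides. Alternatives were normexp (offset 50, on the median in place of the planned mean signal), quantile or median scaling, other filters and eBayes settings, flagged spots kept, the mean of a gene's probes, only the groups compared, the deposited values, slide or replicate number as a block, and each array left out. Exact permutation tests used scipy 1.17.1. The number of arrays limits the precision.

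The 10 genes, the pathway and marker lists and the naming rule were chosen with earlier results of these data known. The plot of pathway genes names each called gene it shows. Named in the text were all 10 genes, the targeted genes, up to 8 called pathway genes and 2 called markers per list with the largest change, and the 5 genes most correlated with the member of largest called change in each comparison against EV. Some genes that the rule picks are not reported here.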

Additional observations from a re-analysis of the deposited data

How the results depend on the processing

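The calls of Stat5a in Gata2 KD, of Jak2, Socs2 and Stat5a between the KD groups, and of each targeted gene in its own KD held in all 21 alternatives. Directions of called genes held throughout, and the counts below moved by more than 1.5 times. Counts are given for Gata2 KD and then Pu.1 KD against EV. The main counts were 3 and 1 member genes, 3 and 2 member probes, and 16 and 5 pathway genes. Normexp gave 5 and 4 member genes, 5 and 4 member probes, and 8 pathway genes in Pu.1 KD. The deposited log2 values gave 5 and 4 genes, 5 and 4 probes, and 11 pathway genes in Pu.1 KD. The slide as a block gave 5 and 4 genes, 5 and 5 probes, and 9 pathway genes in Pu.1 KD. Scaling to the median gave 1 and 0 genes, 1 and 0 probes, and 7 and 3 pathway genes, and between the KD groups 3 member genes and 4 member probes in place of 6 and 7. Using only the groups compared gave 1 and 0 genes, 1 and 0 probes, and 7 and 3 pathway genes. In Pu.1 KD, quantile normalization gave 2 member genes, a filter on all arrays gave 2 member genes and 8 pathway genes, and eBayes with trend and robust settings gave 3 member genes and 10 pathway genes. Between the KD groups, median scaling also ended the calls of Pim1 (adjusted p = 0.0649), Socs1 (0.0686) and Stat3 (0.253), and Stat3 lost its call with only the groups compared (0.0793) and without the filter on dim probes (0.0557). The cause of these shifts was not tested. With 1 array left out, Pu.1 KD gave 0 to 1 member genes, 0 to 2 member probes and 3 to 5 pathway genes, and Gata2 KD gave 7 to 12 pathway genes.

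Over all probes, the main counts were 1890 in Gata2 KD, 962 in Pu.1 KD and 3517 between them. They were 1191, 368 and 2266 with median scaling, 1106, 219 and 3524 with only the groups compared, 2924, 1830 and 5170 with the slide as a block, and in Pu.1 KD 1565 with trend and robust settings and 1785 with the deposited values. With 1 array left out they ranged from 1047 to 1697, 277 to 822 and 2211 to 3942.

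Deviations of same-numbered arrays correlated between -0.55 and 0.65 (9 pairs). Those of arrays on the same slide correlated between -0.04 and 0.72 (9 pairs), and on different slides between -0.63 and 0.35 (18 pairs). Some same-numbered arrays share a slide and others do not, so these ranges cannot tell whether replicate numbers pair the arrays. The same-numbered pairs that share a slide correlated at 0.65 and 0.52, and those on different slides between -0.55 and 0.35. The fit with a replicate block gave 0 member genes and 0 member probes in Pu.1 KD, 7 and 3 pathway genes, and 1167 and 227 probes over the array. Under it the calls of Jak2 in Pu.1 KD (adjusted p = 0.0747), Socs1 in Gata2 KD (adjusted p = 0.0546) and Stat3 between the KD groups (adjusted p = 0.138) were lost.

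Uncalled changes that turned sign were near 0. Cish in Gata2 KD was 0.0025 with median scaling, Pim2 in Gata2 KD was 0.054 with the mean of its probes, and Socs1 in Pu.1 KD was -0.073 with normexp and -0.024 with the deposited values. Stat5a in Pu.1 KD was 0.0029 with quantile normalization, 0.0062 with median scaling and 0.048 with the deposited values. With 1 array left out, Cish ran from -0.19 to 0.076, Jak2 from -0.022 to 0.19 and Stat3 from -0.12 to 0.024 in Gata2 KD, and Socs1 from -0.048 to 0.078 and Stat5a from -0.15 to 0.048 in Pu.1 KD.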

Other observations

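Stat5b, Stat5a and Stat3 are neighbours on mouse chromosome 11, with 0 annotated genes between Stat5b and Stat5a and 0 between Stat5a and Stat3 in the RefSeq table. Stat5b and Stat3 are read from the - strand and Stat5a from the + strand. In the order Stat5b, Stat5a, Stat3, their changes against EV were -0.40, -1.09 and -0.07 in Gata2 KD, and 0.17, -0.04 and -0.60 in Pu.1 KD. Stat5a minus Stat5b had an exact permutation p of 0.1 in Gata2 KD and 0.3 in Pu.1 KD, and differences from Stat3 were not tested. Stat5a was the one called in Gata2 KD, and none was called in Pu.1 KD, where Stat3 passed with the slide as a block (adjusted p = 0.0276).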
